A study of Mus musculus with 3 samples.

Results

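The 7 genes described here encode the mouse receptors for IgG and the chains that carry their signals. They are Fcgr1, Fcgr2b, Fcgr3 and Fcgr4, the adaptor genes Fcer1g and Tyrobp, and the kinase gene Syk. They were chosen by gene symbol from 55536 annotated genes, 22028 of them protein-coding. RNA bound to chromatin, much of it unfinished, was isolated from C57BL/6J bone-marrow-derived macrophages. The cells were given 100 ng/ml Lipid A for 12 h, washed out for 12 h, and given 100 ng/ml Lipid A again for 50 min. Lipid A is the part of lipopolysaccharide that Toll-like receptor 4 senses. The 3 libraries, biological replicates 1, 2 and 3 in the labels, form 1 group and began with 1 µg, 250 ng and 500 ng of RNA. The labels give the same donor for each, and the spread between these samples may be technical. Cells without the second dose, or without any Lipid A, were not analysed here, so every value below is a level and not a response.

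IgG receptors let macrophages act on antibody-coated particles and immune complexes. Fcgr1 encodes the high-affinity receptor, and Fcgr3 and Fcgr4 encode receptors of lower affinity. These activating receptors signal through the Fc receptor gamma chain made by Fcer1g. Its tail holds an activation motif (ITAM) that Src-family kinases phosphorylate, which recruits Syk through a pair of SH2 domains. Fcgr2b encodes the inhibitory receptor, whose tail holds an inhibitory motif (ITIM) that recruits the lipid phosphatase SHIP-1, encoded by Inpp5d. Tyrobp encodes DAP12, a separate ITAM adaptor used by receptors such as TREM2.

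Expression was measured as TPM, a relative abundance corrected for transcript length. The libraries held 13897176, 19597343 and 19348626 expected counts in replicates 1, 2 and 3. Protein-coding genes held 29.6%, 27.6% and 28.2% of TPM. Across genes, log2(TPM + 1) of library pairs correlated at Pearson's r of 0.953 to 0.970 over 9450 genes, which are not independent replicates. No pair of libraries agreed within counting noise (chi-square per degree of freedom of 41.6 to 103). The macrophage label was checked with marker genes. All 8 macrophage markers reached 1 TPM in each library, with summed levels of 1015, 1255 and 1063 TPM. In the gene tables derived from alignments, none of the 6 B cell, 7 T and natural killer cell, 7 neutrophil, 7 mast cell and basophil or 5 dendritic cell markers did. The summed level of these lists ran from 0 to 1.65 TPM in a library. Of 5 platelet and erythroid markers, Itga2b and Alas2 did, and that list summed to 7.36, 11.5 and 12.3 TPM. B cells also express Fcgr2b, and the B cell markers Cd79b and Pax5 had 0 counts in every library. A count of 0 allows up to 3 counts, which is 0.216, 0.153 and 0.155 CPM (counts scaled to library size) in replicates 1, 2 and 3. Such floors, and the intervals below, cover counting error only. In these bulk samples, fewer cells of a type and less RNA per cell cannot be told apart.

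Much of the RNA of Fcgr2b and Syk was assigned to annotated transcripts that contain intron. The boundaries that separate those transcripts from the spliced forms are shown first, since the levels rest on them. Each line gives 30 bases of exon in lower case and 30 bases of intron in capitals, 5′ to 3′ along the annotated transcript, from the GENCODE M21 sequences of build mm10. Where exons are joined, the coordinates are those of the outermost bases.
Fcgr2b-205 (retained intron, chr1:170965672-170965731, minus strand): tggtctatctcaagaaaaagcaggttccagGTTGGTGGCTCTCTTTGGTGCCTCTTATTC
Fcgr2b-207 (retained intron, chr1:170969444-170975909, minus strand): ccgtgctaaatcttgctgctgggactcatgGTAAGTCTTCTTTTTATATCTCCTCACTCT
Fcgr2b-206 (processed transcript, chr1:170961204-170961263, minus strand): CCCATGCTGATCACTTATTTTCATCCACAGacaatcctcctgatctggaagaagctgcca
Syk-204 (retained intron, chr13:52623247-52623306, plus strand): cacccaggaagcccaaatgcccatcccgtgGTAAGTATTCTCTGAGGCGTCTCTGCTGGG
Syk-205 (retained intron, chr13:52611223-52611282, plus strand): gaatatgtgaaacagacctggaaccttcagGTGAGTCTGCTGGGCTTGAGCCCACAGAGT
Fcer1g-202 (retained intron, chr1:171231147-171231206, minus strand): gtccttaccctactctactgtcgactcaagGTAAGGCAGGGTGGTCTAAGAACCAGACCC
In the Fcgr2b-206 line the intron comes before the exon, and in the other lines it follows.

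All 7 genes were detected, which means 1 TPM or more in each of the libraries, against 39.2% of protein-coding genes. Their mean levels ran from 580.03 to 2.78 TPM in the order Syk, Fcgr2b, Fcer1g, Fcgr1, Tyrobp, Fcgr4 and Fcgr3. The median of the 7 mean levels was 27.4 TPM, against 0.367 TPM over all protein-coding genes and 9.95 TPM over the 8638 detected ones. With a threshold of 5 TPM in every library, 5 members were detected, and Fcgr3 and Fcgr4 were not.

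**Figure D1:**
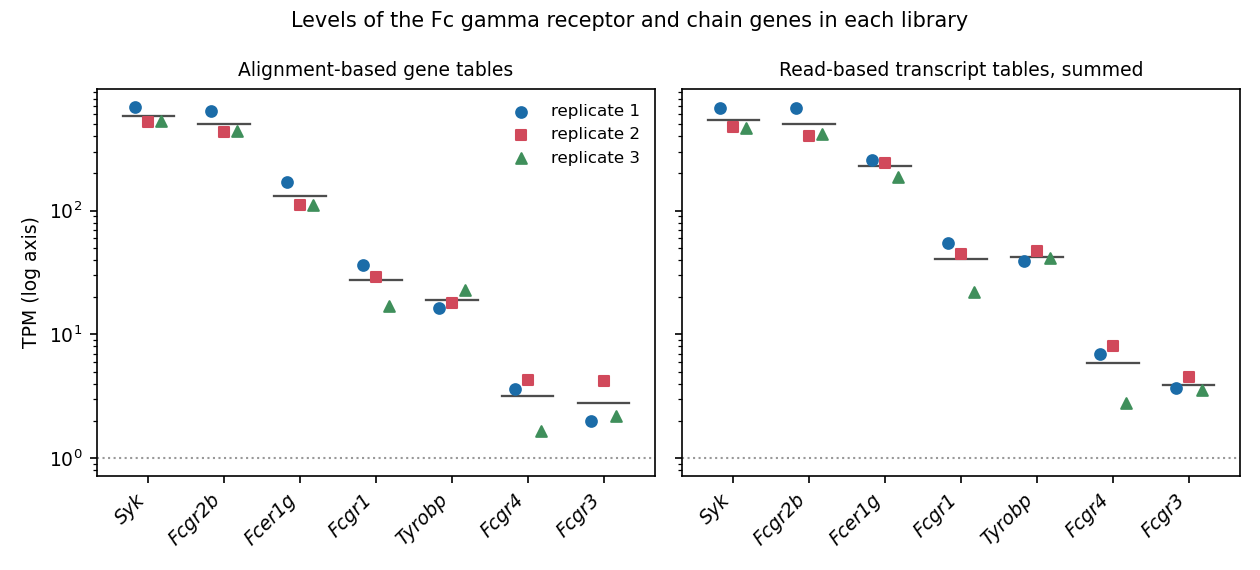
TPM of the 7 genes on a log axis, with a point for each library and a line at the mean of 3, in the alignment-based gene tables (left) and the read-based transcript tables summed per gene (right). Fcgr2b and Syk stand above 400 TPM in every library of both tables, and Fcgr3 and Fcgr4 stay under 10 TPM. The dotted line marks 1 TPM.

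Among the receptors, the inhibitory one stood far above the activating ones in gene TPM. Gene TPM includes intron-bearing transcripts, which are annotated for Fcgr2b and Fcgr3 but not for Fcgr1 or Fcgr4. The part of this in the differences below was not tested. Fcgr2b (ENSMUSG00000026656.15, chr1:170958617-170976547, minus strand) had 634, 428 and 436 TPM in replicates 1, 2 and 3, a mean of 499 ± 117 TPM (SD, n = 3). This mean was higher than that of 99.8% of protein-coding genes. Replicate 1 was the highest, and the other 2 libraries lay close together.

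Fcgr1 (ENSMUSG00000015947.10, chr3:96282909-96293969, minus strand) had 36.2, 29.2 and 16.9 TPM in replicates 1, 2 and 3, a mean of 27.4 ± 9.81 TPM (SD, n = 3). It rested on 933, 1082 and 530 expected counts, and replicate 3 was the lowest. Its coefficient of variation of 35.8% was larger than that of 78.9% of detected protein-coding genes, whose median was 22.7%.

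Fcgr4 (ENSMUSG00000059089.4, chr1:171018920-171029761, plus strand) had 3.60, 4.27 and 1.67 TPM, a mean of 3.18 ± 1.35 TPM (SD, n = 3). Replicate 3 was again the lowest. Its counts were few, 53, 77 and 28, with 95% exact Poisson intervals of 39.7 to 69.3, 60.8 to 96.2 and 18.6 to 40.5. In CPM, the interval of replicate 3 (0.962 to 2.09) lay below those of replicates 1 (2.86 to 4.99) and 2 (3.10 to 4.91).

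Fcgr3 (ENSMUSG00000059498.13, chr1:171051174-171064935, minus strand) had 1.98, 4.18 and 2.19 TPM, a mean of 2.78 ± 1.21 TPM (SD, n = 3). It was highest in replicate 2, not in replicate 1. Its counts were 31.01, 79 and 39.01. The means of Fcgr3 and Fcgr4 were higher than those of 66.5% and 67.6% of protein-coding genes.

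Within each library, Fcgr2b minus Fcgr3 was 7.74, 6.37 and 7.10 on the log2(TPM + 1) scale, a mean of 7.07 ± 0.68 (SD, n = 3) which is 134-fold in TPM + 1. Fcgr2b minus Fcgr4 averaged 6.94 ± 0.52, 123-fold, and Fcgr2b minus Fcgr1 averaged 4.18 ± 0.40, 18.1-fold. All 3 differences were positive in 3 of 3 libraries. The exact two-sided sign-flip p was 0.25 for each (0.276 adjusted by Benjamini-Hochberg over the 21 pairs), and 0.25 is the smallest that 3 libraries can give. No pair of members could therefore pass a threshold of 0.05. Fcgr4 and Fcgr3 did not differ beyond their spread: Fcgr4 minus Fcgr3 was 0.63, 0.02 and -0.26, a mean of 0.13 ± 0.45 (exact sign-flip p = 0.75, adjusted 0.75). Without replicate 1 the mean was -0.12.

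The excess of the inhibitory receptor was much smaller in spliced coding transcripts. As a ratio of TPM, a measure chosen after the values were seen, Fcgr2b over the sum of Fcgr1, Fcgr3 and Fcgr4 was 15.2, 11.4 and 21.03 in replicates 1, 2 and 3, a mean of 15.9 ± 4.86 (SD, n = 3). Counting only transcripts annotated as protein-coding, the ratio was 3.37, 1.505 and 3.53, a mean of 2.80 ± 1.13. In those transcripts Fcgr2b had 106, 45.2 and 55.5 TPM, and the activating receptors together had 31.4, 30.1 and 15.8 TPM. With all transcripts of the read-based tables, the ratio was 10.4, 6.99 and 14.9, a mean of 10.8 ± 3.94. Fcgr2b stood higher in each library by all of these measures. On the log2(TPM + 1) scale, Fcgr2b minus Fcgr1 was 1.59 ± 0.67 (SD, n = 3) with protein-coding transcripts only.

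Of the chains, Fcer1g stood above the summed activating receptors that use it and above Tyrobp. Fcer1g (ENSMUSG00000058715.11, chr1:171229572-171234365, minus strand) had 170.1, 111 and 110.3 TPM, a mean of 130.5 ± 34.3 TPM (SD, n = 3). The sum of Fcgr1, Fcgr3 and Fcgr4 was 41.8, 37.6 and 20.7 TPM in the same libraries. Fcer1g minus this sum was 2.00, 1.54 and 2.36 on the log2(TPM + 1) scale, a mean of 1.96 ± 0.41 or 3.90-fold (SD, n = 3; exact sign-flip p = 0.25). With CPM, which are not corrected for length, the difference was -0.22 ± 0.55.

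Tyrobp (ENSMUSG00000030579.10, chr7:30413760-30417585, plus strand) had 16.3, 17.8 and 23.0 TPM, a mean of 19.0 ± 3.50 TPM (SD, n = 3). It was lowest in replicate 1, where Fcer1g, Fcgr1, Fcgr2b and Syk were highest. Among detected protein-coding genes, 50.5% were lowest in replicate 1 and 22.4% were highest there. Tyrobp rested on 91, 105 and 128 counts. Fcer1g minus Tyrobp averaged 2.70 ± 0.55 on the log2(TPM + 1) scale, 6.496-fold, with the same sign in 3 of 3 libraries (exact sign-flip p = 0.25, adjusted 0.276). Fcgr1 minus Tyrobp was 1.11, 0.69 and -0.42, a mean of 0.46 ± 0.79 (SD, n = 3; exact sign-flip p = 0.5, adjusted 0.525). These neighbours in the order of levels did not differ beyond their spread.

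Syk (ENSMUSG00000021457.14, chr13:52583173-52648792, plus strand) had 692, 523 and 525 TPM, a mean of 580.03 ± 97.2 TPM (SD, n = 3), the highest of the 7. It rested on 28523, 29897 and 29884 counts and exceeded 99.8% of protein-coding genes. Fcer1g minus Syk averaged -2.16 ± 0.12 on the log2(TPM + 1) scale, so that the adaptor stood 4.47-fold below the kinase. Syk minus Fcgr2b was small but of the same sign in 3 of 3 libraries, at 0.13, 0.29 and 0.27, a mean of 0.23 ± 0.09. Both pairs had an exact sign-flip p of 0.25, adjusted 0.276. Fcgr2b minus Fcer1g was 1.93 ± 0.04, 3.82-fold, and turned to -0.62 ± 0.20 with protein-coding transcripts only (SD, n = 3).

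**Figure D2:**
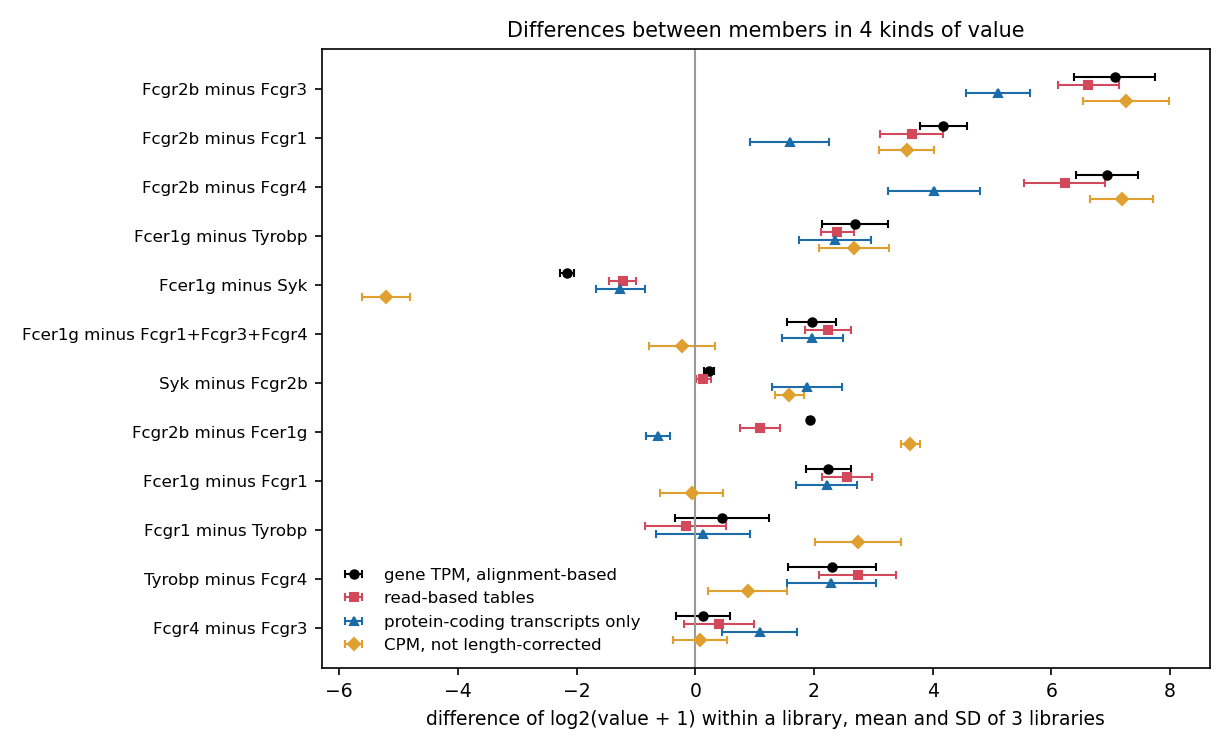
Differences between members within a library, in log2(value + 1), as mean and SD of 3 libraries for 4 kinds of value. Fcgr2b lies above each activating receptor in all 4, whereas Fcgr2b minus Fcer1g lies at 1.93 in gene TPM and at -0.62 when only protein-coding transcripts count.

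The levels differed between the alignment-based tables and the tables made directly from reads. In the read-based tables the means were 540 ± 119 TPM for Syk, 499 ± 156 TPM for Fcgr2b, 229 ± 38.0 TPM for Fcer1g and 42.4 ± 4.01 TPM for Tyrobp (SD, n = 3). There Fcgr1 averaged 40.3 ± 16.7 TPM, Fcgr4 5.93 ± 2.78 TPM and Fcgr3 3.93 ± 0.555 TPM. Tyrobp and Fcgr1 changed places, and the other members kept their order. All 7 were again detected.

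A share of each gene's TPM was next computed for every annotated transcript type. Retained-intron transcripts, an annotated type that holds all or part of an intron, held 62.1% ± 19.0 of Fcgr3, 57.8% ± 6.98 of Syk and 52.4% ± 0.447 of Fcgr2b (SD, n = 3). These were 3 of 7 members with a mean over 50%, against 25.8% of detected protein-coding genes. Among detected genes that have an annotated transcript of this type, as 4 members do, 39.1% were over 50%. The fourth, Fcer1g, had 21.8% ± 5.29 in such a transcript, and the median over genes of this kind was 43.5%. Shares as high as those of Fcgr2b, Syk and Fcgr3 were common: 64.9%, 72.7% and 78.3% of these genes had a lower one. In the read-based tables the share of Fcgr3 was 47.2% ± 2.78. The majority for Syk holds for TPM, which is corrected for length, and not for expected counts. In replicates 1, 2 and 3, Syk-204 had 8573, 7001 and 5612 counts and Syk-205 had 4061, 4279 and 3445. Together they had fewer in each library than the coding transcript Syk-201 alone, at 12879, 12079 and 14204.

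**Figure D3:**
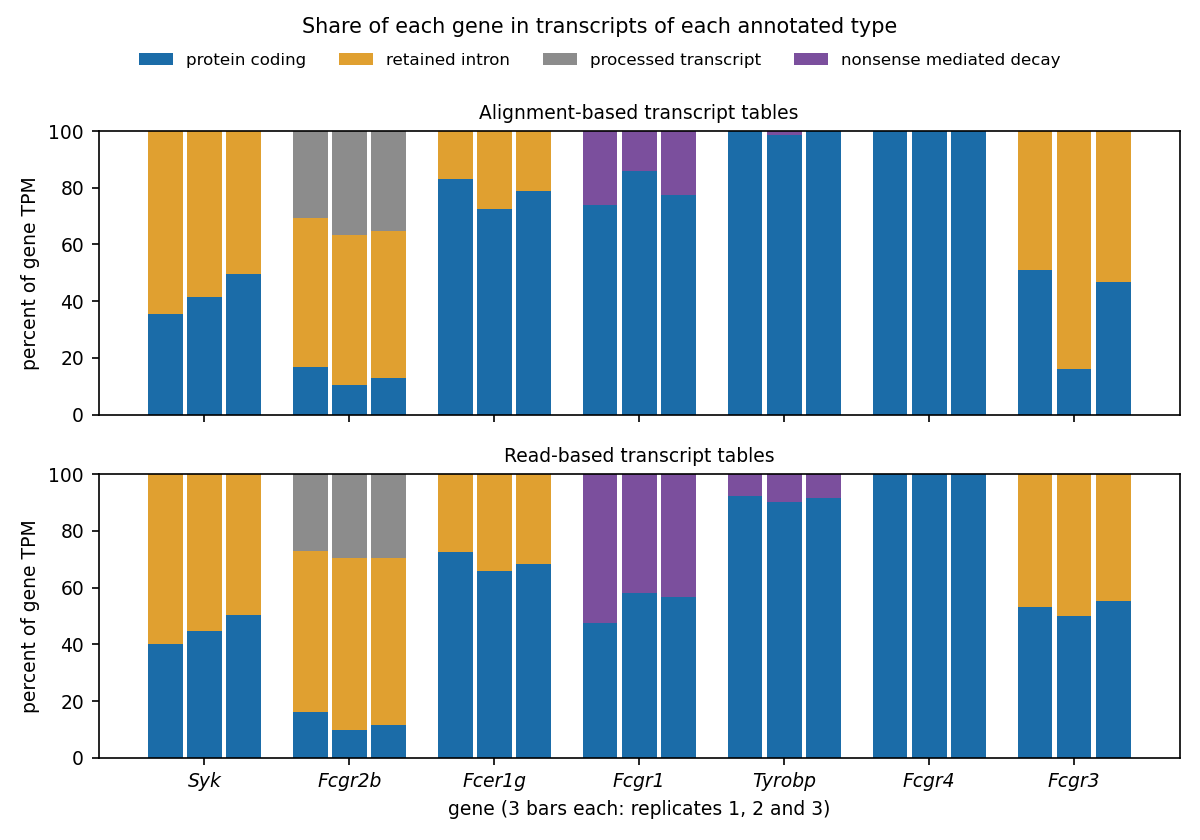
Percent of each gene's TPM in transcripts of each annotated type, with 3 stacked bars a gene for replicates 1, 2 and 3, in both kinds of table. Protein-coding transcripts make up under 20% of Fcgr2b in every library and all of Fcgr4, which has 1 annotated transcript.

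For Fcgr2b the retained-intron type left out a transcript that also holds intron. The processed transcript Fcgr2b-206 has 397 intron bases among its 802, so the share of all transcripts that hold intron bases, a grouping chosen after the values were seen, was also computed. It was 83.3%, 89.4% and 87.3% of Fcgr2b in replicates 1, 2 and 3, a mean of 86.7% ± 3.11 (SD, n = 3), and 87.4% ± 3.18 in the read-based tables. The libraries agreed closely on it. These transcripts also hold exon bases, so the share is not the intronic part of the RNA. For Syk the mean was 57.8% ± 6.98, for Fcer1g 21.8% ± 5.29 and for Tyrobp 0.525% ± 0.91. No annotated transcript of Fcgr1 or Fcgr4 holds intron, so intron reads of those genes have no transcript to be assigned to. The shares therefore compare what the annotation lets each gene show, and the part of the annotation in them was not tested.

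The intron-bearing transcripts carried most of Fcgr2b. Fcgr2b-205 had 247, 158 and 154 TPM in replicates 1, 2 and 3, Fcgr2b-206 had 195, 157 and 154 TPM, and Fcgr2b-207 had 86.7, 68.5 and 72.2 TPM. Each was highest in replicate 1. Fcgr2b-205 runs 1369 bases past the donor side of the intron shown above, and Fcgr2b-207 runs 214 bases into an upstream intron that all 4 protein-coding transcripts remove. Fcgr2b-206 starts inside the intron before the exon shown.

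Fcgr2b has long been known in 2 main forms that differ by an exon for the cytoplasmic tail: the longer form is typical of B cells and the form without it of macrophages. The annotation has both. Fcgr2b-201 contains the exon of 141 bases and Fcgr2b-202 skips it. The exon is printed in capitals with 15 bases of each flanking exon in lower case (mm10, outermost bases chr1:170961219-170965716, minus strand).
Fcgr2b-201: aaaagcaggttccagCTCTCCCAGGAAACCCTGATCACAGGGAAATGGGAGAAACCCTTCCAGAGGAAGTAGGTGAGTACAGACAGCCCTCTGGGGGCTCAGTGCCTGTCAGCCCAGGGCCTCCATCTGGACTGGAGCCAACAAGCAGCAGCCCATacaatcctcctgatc
Fcgr2b-201 had 24.3, 20.97 and 25.98 TPM in replicates 1, 2 and 3, and Fcgr2b-202 had 81.6, 24.3 and 29.6 TPM. The form with the exon was lower in each library, at 0.298, 0.865 and 0.879 of the form without it. In the read-based tables the ratio was 0.449, 3.73 and 2.26, so that the order turned in replicates 2 and 3. Which form led is therefore not settled by these values outside replicate 1. The 2 annotated transcripts also differ in length, at 3544 and 1462 bases, so the exon is not the sole sequence that tells them apart.

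Syk also has 2 coding forms that differ by an exon. Syk-201 and Syk-203 contain 69 bases that Syk-202 lacks, which code for an insert in the linker between the SH2 domains and the kinase domain. The exon is in capitals, with 15 flanking bases on each side (mm10, outermost bases chr13:52623262-52631671, plus strand).
Syk-201: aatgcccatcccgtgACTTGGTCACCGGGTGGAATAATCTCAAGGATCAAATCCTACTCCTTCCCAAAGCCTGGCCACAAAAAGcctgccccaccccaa
Syk-201 had 192, 138 and 175 TPM in replicates 1, 2 and 3, and Syk-203 had 33.3, 64.0 and 72.7 TPM. Syk-202, the form without the exon, had 21.03, 15.7 and 11.7 TPM. Syk-201 stood 9.13, 8.75 and 14.95 times as high as Syk-202, and 4.02, 3.17 and 5.82 times in the read-based tables. The forms with the exon led in each library of both tables, apart from Syk-203 in replicate 1 of the read-based tables (0.891 of Syk-202). Syk-201 and Syk-203 are 5122 and 5363 bases long and Syk-202 is 2519. The exon is thus not the sole sequence that tells these transcripts apart either.

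The intron-bearing transcripts of Syk were Syk-204 with 339.9, 219 and 189.6 TPM and Syk-205 with 106, 86.7 and 75.6 TPM. Syk-204 ends inside the intron just before that 69-base exon and holds 1063 bases of it. Syk-205 keeps a whole intron of 1042 bases and 1230 bases of the next. Both were highest in replicate 1 and lowest in replicate 3. Protein-coding transcripts alone gave Syk 246, 217 and 259.8 TPM, with a coefficient of variation of 9.01% against 16.8% for the gene.

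**Figure D4:**
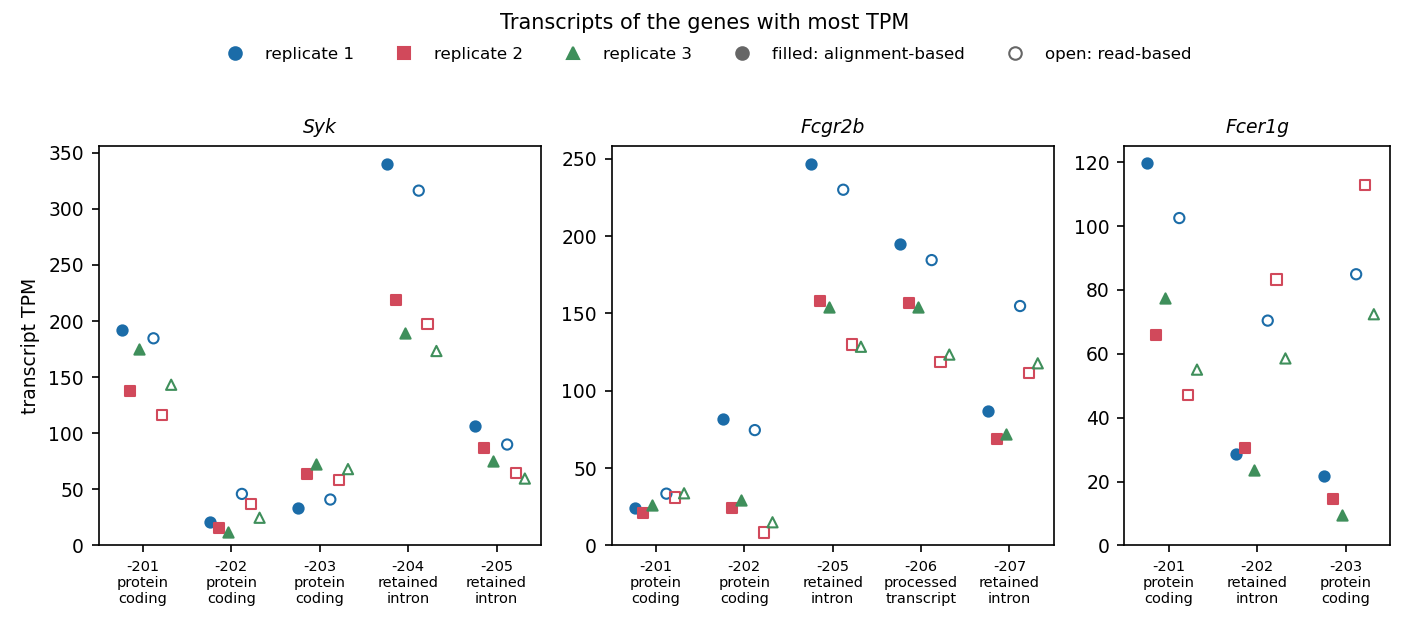
TPM of the annotated transcripts of Syk, Fcgr2b and Fcer1g that reach a mean of 1 TPM, by library, with filled marks for the alignment-based and open marks for the read-based tables. Fcgr2b-205, Fcgr2b-206 and Fcgr2b-207 lie above both coding transcripts in every library of both tables. Fcer1g-203 lies far higher in the read-based tables than in the alignment-based ones.

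In the alignment-based tables, coding transcripts held 78.2% ± 5.29 of Fcer1g, 79.1% ± 6.27 of Fcgr1 and 99.5% ± 0.91 of Tyrobp, but 37.9% ± 19.0 of Fcgr3 (SD, n = 3). Fcer1g-201 had 119.7, 66.0 and 77.5 TPM, Fcer1g-202, the retained-intron form shown above, had 28.7, 30.4 and 23.5 TPM, and the second coding form Fcer1g-203 had 21.8, 14.7 and 9.36 TPM. The read-based tables gave Fcer1g-203 90.05 ± 20.7 TPM (SD, n = 3), above the 68.2 ± 29.99 TPM of Fcer1g-201. The coding transcript of Fcgr1 (ENSMUST00000029748.7) had 26.8, 25.1 and 13.1 TPM. The other transcript of Fcgr1 (ENSMUST00000200420.1), annotated as a target of nonsense-mediated decay, had 9.48, 4.07 and 3.8 TPM. It held 20.9% ± 6.27 of Fcgr1, and 45.9% ± 5.66 in the read-based tables. Tyrobp was divided between the coding forms Tyrobp-201, at 8.66, 7.33 and 8.98 TPM, and Tyrobp-202, at 7.65, 10.2 and 14.0 TPM. The retained-intron transcript of Fcgr3 (ENSMUST00000168817.1) had 0.97, 3.50 and 1.17 TPM, and its main coding transcript (ENSMUST00000164044.7) had 1.01, 0.38 and 1.02 TPM. The higher level of Fcgr3 in replicate 2 lay in the retained-intron transcript in the alignment-based tables only. In the read-based tables that transcript held 46.7%, 50.1% and 44.6% of Fcgr3 in replicates 1, 2 and 3. The higher level was therefore not confined to it there.

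Fcgr2b and Fcgr3 are near copies in the exons for their extracellular domains, and reads there can be placed on either gene. The first of these exons was identical at 241 of 255 bases (94.5%) and the second at 250 of 255 (98.0%). Of the 1733 stretches of 31 bases in Fcgr3 transcripts, 233 (13.4%) also occur in Fcgr2b, against 4.15% of the 5609 in Fcgr2b. The longest run that the coding transcripts Fcgr2b-201 and ENSMUST00000164044.7 of Fcgr3 share is 129 bases, printed once (mm10 minus strand, chr1:170966674-170968081 in Fcgr2b and chr1:171054167-171057792 in Fcgr3, each across an intron).
Shared by Fcgr2b and Fcgr3: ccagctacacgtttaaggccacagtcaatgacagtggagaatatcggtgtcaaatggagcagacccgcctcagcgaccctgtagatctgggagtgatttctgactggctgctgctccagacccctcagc
The deposited credible interval of Fcgr3, whose level is not given, was 1.47 to 2.98 TPM in replicate 1, 3.31 to 5.18 in replicate 2 and 1.65 to 3.15 in replicate 3. How such reads were divided between Fcgr2b, at 499 ± 117 TPM, and Fcgr3, at 2.78 ± 1.21 TPM, was not tested. Counting every other gene, Fcgr2b shared 457 of its stretches of 31 bases (8.15%), more than the 233 it shared with Fcgr3. Fcgr1, Fcer1g and Tyrobp shared no stretch of 31 bases with another gene, Fcgr4 shared 1.39% and Syk 0.0319%.

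Fcgr2b, Fcgr3, Fcgr4 and Fcer1g lie close together on chromosome 1. The first 3 of these follow each other in the order Fcgr2b, Fcgr4 and Fcgr3 with gaps of 42372 and 21412 bases, Fcgr4 on the plus strand between the other two. Along this order the mean levels were 499 ± 117 TPM for Fcgr2b, 3.18 ± 1.35 TPM for Fcgr4 and 2.78 ± 1.21 TPM for Fcgr3 (SD, n = 3). The flanking coding genes were low, Fcrla at 0.110 ± 0.0557 TPM and Cfap126 at 0.320 ± 0.185 TPM. Fcer1g lies farther along, 3192 bases from Apoa2, an apolipoprotein gene with 0.923 ± 0.504 TPM. Tyrobp lies 126 bases from Hcst, the gene of the related adaptor DAP10, on the opposite strand.

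Values of overlapping or adjacent genes differed between the tables. Gm38204, annotated antisense to Fcgr2b, had 0.540 ± 0.381 TPM in the alignment-based tables and 39.1 TPM on average in the read-based ones. Hcst had 2.41 ± 1.63 and 11.3 TPM, and Apoa2 0.923 ± 0.504 and 15.2 TPM (SD, n = 3). Auh, a coding gene beyond Syk, had 10.8 ± 4.36 and 42.6 TPM. Whether the counting used strand was not given in the labels or file headers, so reads of Fcgr2b and of Gm38204 cannot be told apart where they overlap. The microRNA gene Mir6546 overlaps Fcgr3 and had 0 counts in the alignment-based tables and 6.998 TPM on average in the read-based ones, where Fcgr3 had 3.93 TPM. The small nuclear RNA gene Gm26110 lies within Fcgr4 and had 4.01, 1 and 0 counts.

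For each member, the protein-coding gene with the most similar levels over the 3 libraries was found, by the root mean square difference of log2(TPM + 1). For Fcgr2b it was Ifi204, an interferon-inducible gene, with 584, 406 and 455 TPM and a distance of 0.0887. For Syk it was Aoah, whose enzyme removes acyl chains from lipopolysaccharide, with 633, 541 and 544 TPM and a distance of 0.0844. For Fcgr1 it was Cd52, a leukocyte surface glycoprotein gene, at a distance of 0.0975. The nearest for Fcer1g was Fbxw17 (0.0460), for Tyrobp Sdf2 (0.0323), for Fcgr4 Ube2d1 (0.0266) and for Fcgr3 Igip (0.0226). With 3 libraries of 1 group, likeness here means little more than a similar mean level.

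The genes around the receptors were read from 6 lists with 78 symbols, 77 of which matched the annotation. Of the 77, 54 were detected, and the median of their mean levels was 9.76 TPM. Over all protein-coding genes, 39.2% were detected and the median was 0.367 TPM, and each list below is to be read against these values. Other Fc receptor and Fc receptor-like genes were mostly below the threshold: 3 of 12 were detected, against 39.2% of protein-coding genes. Their median level was 0.207 TPM. Trim21, which encodes the cytosolic antibody receptor, led at 62.4 ± 16.7 TPM. Fcrl5 had 1.89 ± 0.953 TPM and Fcgrt, the gene of the neonatal Fc receptor, 1.38 ± 0.291 TPM (SD, n = 3). Pigr, the polymeric immunoglobulin receptor gene, was among 4 genes with 0 counts in every library of the alignment-based tables. Fcer2a, named after its values were seen, had 0.303 ± 0.1201 TPM there and 13.6 ± 0.980 TPM in the read-based tables.

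Kinases that phosphorylate ITAMs, and their controls, included 8 detected genes of 12, against 39.2% of protein-coding genes, and the median of the list was 8.295 TPM. Ptprc, the gene of the phosphatase CD45, had 778, 667 and 685 TPM, a mean of 709.9 ± 59.4 TPM (SD, n = 3). Lyn, a Src-family kinase that acts on both activating and inhibitory receptors, had 203.9, 229 and 120.2 TPM, a mean of 184 ± 57.1 TPM, and was lowest in replicate 3. Csk, which restrains these kinases, had 39.7 ± 17.8 TPM. Blk, a kinase of B cells, stood at 0.01 ± 0.0173 TPM.

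Downstream of Syk, 24 of 25 genes were detected, against 39.2% of protein-coding genes, and the median level was 28.05 TPM. Prkcd, the protein kinase C delta gene, led at 431 ± 77.5 TPM (SD, n = 3), followed by Lcp2, the gene of the adaptor SLP-76, at 252 ± 46.6 TPM and Pik3r1, a regulatory subunit of phosphoinositide 3-kinase, at 145 ± 44.8 TPM. In the read-based tables Lcp2 had 865 ± 69.9 TPM. The gene not detected was Lat, an adaptor best known from T cells, at 0.330 ± 0.0557 TPM. Syk itself, with 580.03 ± 97.2 TPM, stood above each of the 25 in the alignment-based tables and below Lcp2 in the read-based ones, where Syk had 540 ± 119 TPM.

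All 10 inhibitory effector genes were detected, against 39.2% of protein-coding genes, and their median was 18.9 TPM. Inpp5d, which encodes the phosphatase that the Fcgr2b tail recruits, led with 82.2, 174 and 120.1 TPM, a mean of 125 ± 45.9 TPM (SD, n = 3). It was highest in replicate 2, and Fcgr2b was highest in replicate 1. The ubiquitin ligase genes Cbl and Cblb had 90.4 ± 1.87 TPM and 59.4 ± 20.5 TPM, and the adaptor gene Dok1 was lowest at 3.50 ± 2.01 TPM.

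Other receptors that signal through Fcer1g or Tyrobp included 8 detected genes of 17, a share near the 39.2% of protein-coding genes, and the median level was 1.16 TPM. Clec4e, which encodes Mincle, a lectin receptor that pairs with the Fcer1g chain, had 1074, 541 and 989 TPM, a mean of 868 ± 286 TPM (SD, n = 3). It stood above all 7 members on average, and replicate 2 was the lowest. Cd300c2 had 28.5 ± 6.04 TPM and Trem2, a partner of Tyrobp, 16.1 ± 2.46 TPM. Oscar, an Fcer1g partner of osteoclasts, had 0 counts. The summed level of the list was 1178, 629 and 1071 TPM in replicates 1, 2 and 3, and Clec4e made up most of it.

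**Figure D5:**
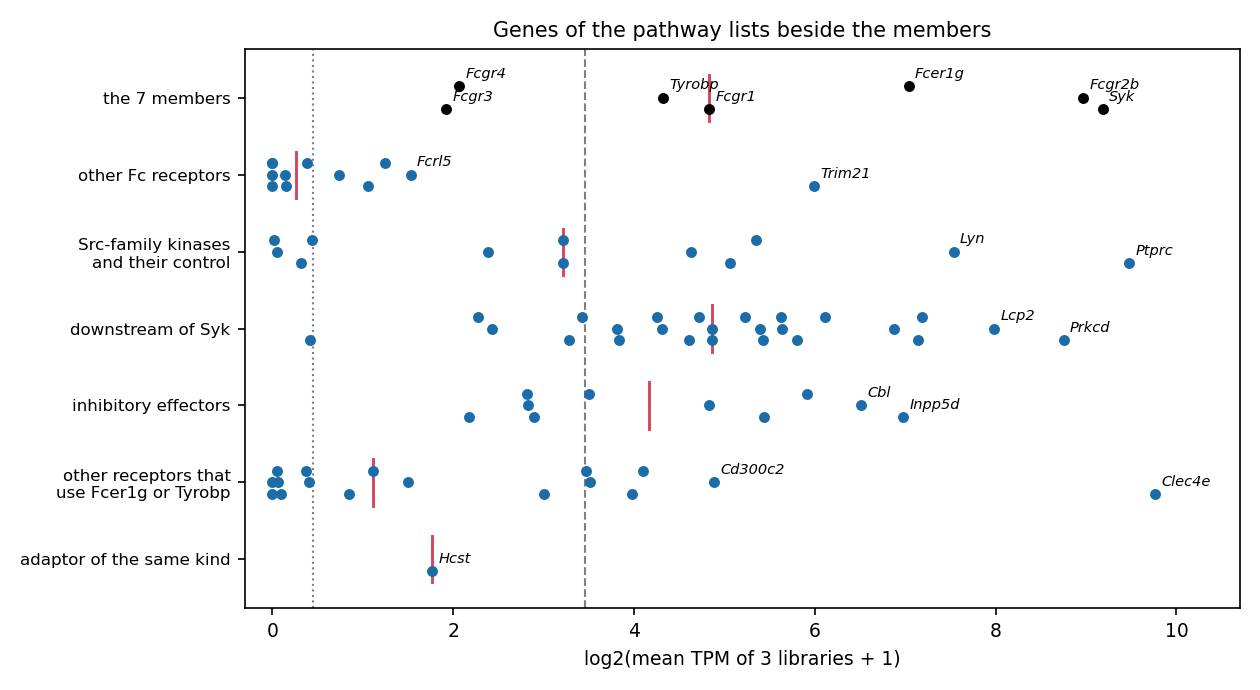
Mean level of each gene, as log2(mean TPM of 3 libraries + 1), for the 7 members (top, black) and the 77 genes of the 6 lists, with a red bar at the median of each. The dotted and dashed lines mark the medians of all (0.367 TPM) and of detected protein-coding genes (9.95 TPM). The genes downstream of Syk lie mostly to the right of the dashed line, and the other Fc receptor and Fc receptor-like genes lie mostly at the far left.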

How the data were processed

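Each of the 3 libraries has gene and transcript tables derived from alignments and a transcript table estimated directly from reads, on build mm10 with GENCODE M21, per the file headers and each library's deposited text. Which programs made them, and whether they used strand, was not given in the labels or headers. The TPM values deposited by the authors are scaled to a fixed total in each library over all features. The expected counts deposited by the authors need not be whole, and were used for depth, intervals and counts scaled to library size (CPM). The other columns used, lengths in bases and credible intervals, are also as the authors deposited them.

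The members, gene lists and markers were chosen with earlier results of these data known. Symbols came from the read-based tables, which name 55450 of the 55536 genes, and were joined by gene identifier. Members were compared within a library on log2(TPM + 1) by an exact two-sided sign-flip test. Of each list, the 3 highest genes and the lowest by mean TPM are named, with the neighbours of each member (1 neighbour is not reported here) and transcripts with at least 10% of their gene's TPM. Alternatives were the read-based tables, posterior mean TPM, TPM rescaled over protein-coding genes, protein-coding transcripts only, CPM, a pseudocount of 0.1, thresholds of 5 and 0.1 TPM, and leaving out each library. Transcript sequences were GENCODE M21's, compared in stretches of 31 bases on the transcribed strand. The functions were tested on simulated data. Python 3.11.15, pandas 2.3.3, numpy 2.4.6 and scipy 1.17.1 were used.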

Additional observations from a re-analysis of the deposited data

How the results depend on the processing

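No comparison between treatments was possible because all 3 libraries belong to 1 group, and members were compared within a library. With 3 libraries no sign-flip test could pass, so stability refers to sign and size. Of 148 recomputed differences, shares and counts, 123 kept their sign and moved by less than 1 SD, or by less than 1.5-fold for counts. Part of this was fixed in advance. Leaving out 1 of 3 libraries cannot move a mean by 1 SD, so a difference could then fail only by its sign, and a share not at all. The protein-coding share of Fcgr4, which has 1 annotated transcript, is always 100%. The 123 therefore overstates how much was put to the test. Fcgr2b minus Fcgr1, 4.18 in gene TPM, was 3.65 in the read-based tables and 3.56 in CPM, and 1.59 with protein-coding transcripts only. With protein-coding transcripts only, Fcgr2b minus Fcgr3 was 5.11, Fcgr2b minus Fcgr4 4.02, Fcer1g minus Syk -1.26, Syk minus Fcgr2b 1.89 and Fcgr4 minus Fcgr3 1.08, and Fcgr2b minus Fcer1g turned to -0.62. In the read-based tables, Fcgr2b minus Fcgr4 was 6.23, Fcer1g minus Syk -1.23, Syk minus Fcgr2b 0.13 and Fcgr2b minus Fcer1g 1.09, and Fcgr1 minus Tyrobp turned to -0.16. In CPM, which favours long transcripts, Fcer1g minus Syk was -5.21, Syk minus Fcgr2b 1.59, Fcgr2b minus Fcer1g 3.62, Fcgr1 minus Tyrobp 2.74 and Tyrobp minus Fcgr4 0.88. There Fcer1g minus the summed activating receptors turned to -0.22 and Fcer1g minus Fcgr1 to -0.062. Leaving out 1 library in turn gave Fcgr4 minus Fcgr3 values of -0.12 to 0.33, the lowest without replicate 1. Protein-coding shares in the read-based tables were 54.1% for Fcgr1, 69.0% for Fcer1g and 91.5% for Tyrobp. Apart from length correction in CPM and the transcripts counted, the cause of these shifts was not tested. Counts under 100 limit Fcgr3 and Fcgr4 in every library.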
